A study of Macaca mulatta with 10 samples.

Results

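Translation initiation factors are the proteins that bring a ribosome and an initiator tRNA to the start codon of an mRNA, and their genes carry symbols that start with EIF. Their transcripts were measured in liver of rhesus macaques (Macaca mulatta). Every probe set that the platform annotation pairs with exactly 1 symbol starting with EIF was taken, other than the EIF2AK kinases. The probe sets were chosen by symbol and no signal entered that rule, but the family was proposed with results of the same brain-dead to control comparison in view, so its changes and their p-values are given as a description. This gave 83 probe sets of 34 genes, out of 24969 probe sets with 1 symbol and 52865 on the array. By name, 17 probe sets of 7 genes belonged to EIF2, 27 of 11 genes to EIF3 and 19 of 8 genes to EIF4. A further 14 probe sets of 5 genes were EIF1 and EIF5 factors, 5 were EIF5A genes and 1 was EIF6.

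Livers of 5 brain-dead donors were compared with livers of 5 living donors, 1 array per animal. In the brain-dead group a balloon catheter was inflated outside the dura, Ringer's solution and vasopressin, dopamine or both supported the circulation, and the organ was recovered after 6 h of brain death per the sample labels or 5 h per the series' design text. Control animals were sedated, anaesthetised and ventilated for 1 h before recovery, so brain death cannot be told apart from the longer ventilation and the drugs that came with it. Livers of both groups were flushed in place with preservation solution. Controls were 3 females and 2 males aged 4 to 20 years, and brain-dead donors were 2 females and 3 males aged 7 to 18 years, with 1 age not given. The labels name no strain, and the animals are the replicates.

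Initiation proceeds in steps that divide the family by role. EIF2 carries the initiator methionyl-tRNA to the small ribosomal subunit in its GTP-bound form, and EIF2B recharges EIF2 with GTP, a step blocked when stress kinases phosphorylate EIF2S1. EIF3 is a large scaffold on the small subunit, and the EIF4 factors recognise the mRNA cap, unwind the leader and recruit the small subunit. EIF1 and EIF5 govern start codon choice, and EIF5B joins the large subunit. Liver makes most plasma proteins, so its hepatocytes depend on this machinery throughout.

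The array medians lay between 175 and 227, on the linear scale of the deposited signal, and precision is limited by having 10 arrays. Of 8 listed hepatocyte markers 4 were measured, and these were above the array median on at least 8 of 10 arrays each. Of 5 measured neutrophil markers 2 rose, S100A8 and S100A9. CSF3R (log2 change 0.76) and FCGR3 (0.05) did not pass, and S100A12 was too dim to be tested. The summed signal of the 5 was 1538 to 6176 in controls and 9840 to 56958 in brain-dead animals, where S100A8 and S100A9 made up most of it. Of the other marker lists none had a gene past the threshold; summed endothelial markers were 12100 to 24667 in controls and 10073 to 17006 in brain-dead animals, and summed macrophage markers 42687 to 64255 and 31889 to 63891. In bulk liver, fewer cells of a type and less RNA per cell cannot be told apart. The part of these markers in the results below was not tested. The ratio of the 3' to the 5' actin control probe set, a measure of RNA integrity, was 1.24 to 1.41 in controls and 1.15 to 1.38 in brain-dead animals.

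Only probe sets with a signal over the array median in 5 or more animals were tested, and 75 of the 83 met this. Changes below are differences of mean log2 signal, brain-dead minus control, with standard errors from limma (n = 5 animals per group). Of the 75, 2 rose, none fell and 73 did not pass a threshold of 0.05 on limma's p, adjusted by Benjamini-Hochberg over the 26653 probe sets tested. That is 2.67%, where 6.1% of all probe sets tested passed, 2.72% higher and 3.39% lower. The probe sets that rose belonged to EIF4G1 and EIF2S2. A change above 0 was seen in 59 of the 75 (78.7%), against 49.8% of all probe sets tested. The median change over all 83 was 0.27, where it was -0.03 over all 52766 probe sets other than controls. Groups did not overlap, brain-dead higher, for 5 of the 75, where 3.33% of all probe sets tested were so placed, and none of the 75 was lower without overlap (3.6% of all). With each gene taken by its tested probe set of highest mean signal, 2 of 33 EIF genes rose and none fell, beside 2.91% and 3.9% of 9835 genes. The number past the threshold depended on single animals, and so did the share over all probe sets tested. It was 1 without control animal 1, 2 or 3 or brain-dead animal 3, 4 or 5, where 2.48% to 3.35% of all passed. It was 8 without control animal 4 (8.59% of all) and 7 without brain-dead animal 2 (6.9% of all).

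**Figure D1:**
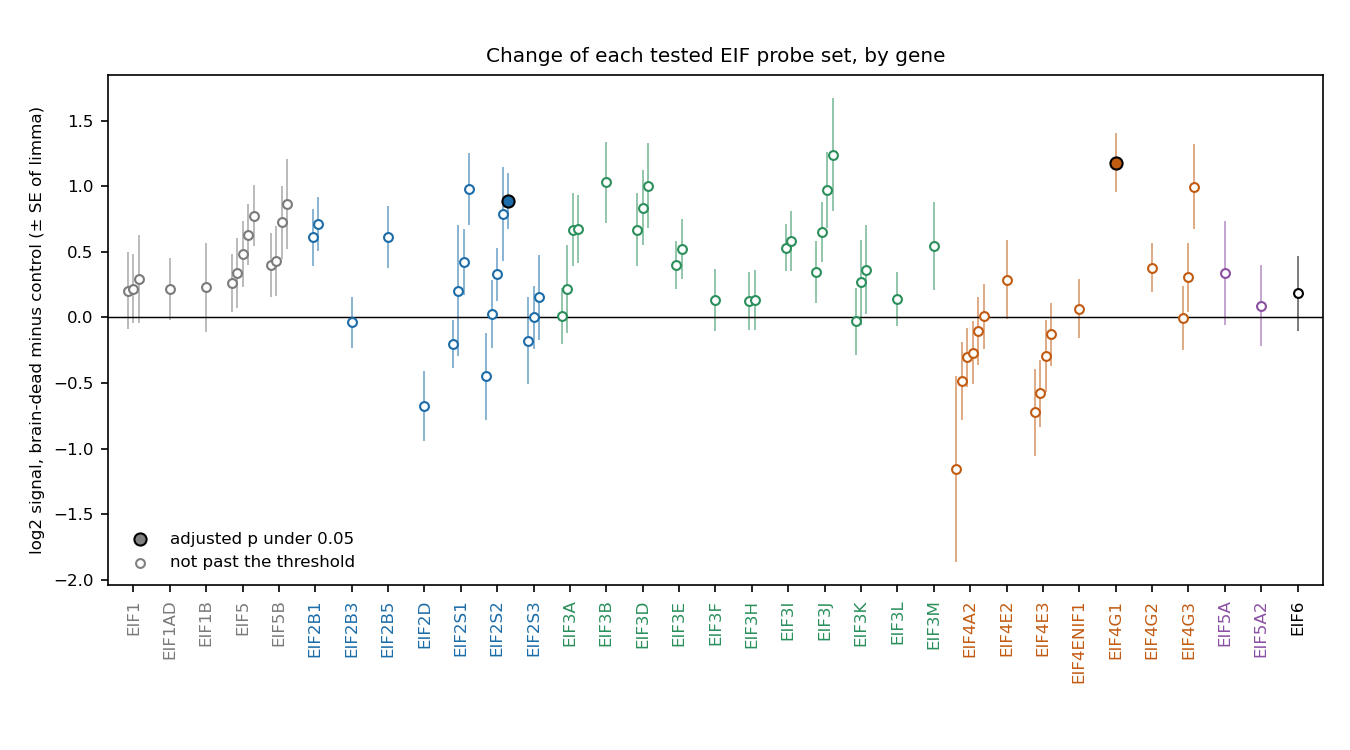
Change in log2 signal, brain-dead minus control, of the 75 tested EIF probe sets (vertical axis, points with limma standard errors) by gene (horizontal axis), coloured by group. The 2 filled points, EIF4G1 at 1.18 and EIF2S2 at 0.89, passed the threshold; EIF3 probe sets lie above 0 except 1, while EIF4A2 and EIF4E3 lie mostly below.

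EIF4G1 encodes the scaffold that holds the cap-binding protein and the helicase together and bridges them to EIF3. It was measured by 1 probe set, MmugDNA.32171.1.S1_s_at. Its signal was 2207, 3494, 4540, 3973 and 3912 in control animals 1 to 5, and 9340, 7063, 7687, 7243 and 8791 in brain-dead animals 1 to 5. Every brain-dead animal was above every control, and control animal 1 was lowest. The mean signal was 3625 ± 876 in controls and 8025 ± 996 in brain-dead animals (SD, n = 5). EIF4G1 rose 2.26-fold (log2 change 1.18 ± 0.22, 95% interval 0.70 to 1.66, limma, Benjamini-Hochberg adjusted p = 0.0121). The call held under each of 23 alternative settings, single animals left out included, with adjusted p from 0.00865 to 0.0413 (limma, Benjamini-Hochberg). The difference was 1.31 among females and 1.00 among males. By its type, the probe set may hybridise to several transcripts.

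The other scaffolds did not pass. EIF4G2, a relative that lacks the site for the cap-binding protein, had a change of 0.38 ± 0.19 in its tested probe set (limma, Benjamini-Hochberg adjusted p = 0.237). EIF4G3, a close relative of EIF4G1, had 3 tested probe sets with changes of 1.00 ± 0.32, 0.31 ± 0.26 and -0.01 ± 0.24. The first of these was dim, with a mean signal of 262 ± 73.2 in controls and 553 ± 241 in brain-dead animals (SD, n = 5), and lay outside the threshold (limma, Benjamini-Hochberg adjusted p = 0.0842). The 3 probe sets of EIF4G3 therefore gave unlike values for 1 gene.

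EIF4A2, an RNA helicase of the cap-binding complex, had changes mostly below 0 and did not pass. Of its 6 probe sets 5 had a change below 0 and 1 had a change of 0.01. The brightest, MmugDNA.7754.1.S1_at, had signals of 33670, 27214, 34324, 38197 and 39458 in controls and 28600, 19605, 21488, 31858 and 42998 in brain-dead animals. The groups overlapped, and brain-dead animal 5 was the highest of all 10. Its change was -0.30 ± 0.22 (95% interval -0.79 to 0.18). The lowest change of any EIF probe set, -1.16 ± 0.71, was also one of EIF4A2, MmugDNA.11038.1.S1_at, with signals of 326, 240, 144, 319 and 335 in controls and 51.0, 199, 19.8, 443 and 246 in brain-dead animals. Of these signals, those of brain-dead animals 1 and 3 stand far below the rest, and the group also holds the highest value. The change was -0.52 without brain-dead animal 3, where that of EIF2D was lower at -0.74. The change on this EIF4A2 probe set was -0.65 with a pseudocount of 64 and -0.52 once sex and age were covariates. No age is given for brain-dead animal 3, which bears on that last fit. Adjusted p-values of the 6 ran from 0.347 to 0.990 (limma, Benjamini-Hochberg). A further probe set, annotated to both EIF4A2 and LOC718869 and so left out by the rule of 1 symbol, went the other way. Its change was 0.51 (limma, Benjamini-Hochberg adjusted p = 0.228).

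Cap-binding proteins did not pass either. EIF4E, the cap-binding subunit itself, was measured by 1 probe set that was too dim to be tested, with signals of 211, 162, 271, 81.2 and 107 in controls and 102, 215, 161, 80.7 and 153 in brain-dead animals. The groups overlapped over most of their range. EIF4E3, an atypical cap-binding relative, had 4 probe sets with changes of -0.72 ± 0.33, -0.58 ± 0.25, -0.30 ± 0.27 and -0.13 ± 0.24, all below 0, and adjusted p-values from 0.190 to 0.793 (limma, Benjamini-Hochberg). EIF4E2, a cap-binding protein that represses translation, had a change of 0.29 ± 0.30, and EIF4ENIF1, which carries EIF4E into the nucleus, one of 0.07 ± 0.23. Of the 17 tested EIF4 probe sets 1 rose and none fell. The median change over all 19 was -0.10, and 0.18 when each gene was represented by its probe set of highest mean signal, so the sign of that median depends on how genes with several probe sets are counted.

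**Figure D2:**
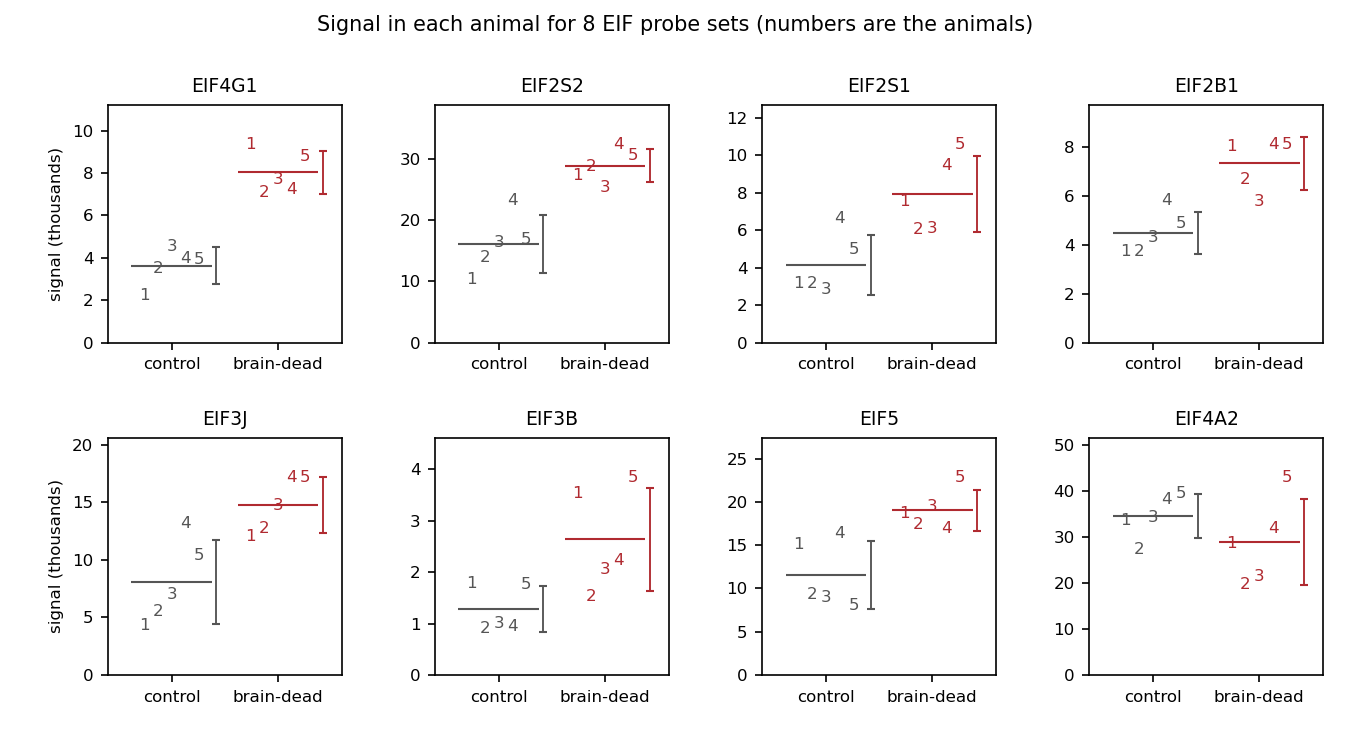
Deposited signal (linear vertical axis from 0) of 8 EIF probe sets in the 5 control and 5 brain-dead animals, each digit being 1 animal by its number, with the group mean as a line and its SD as a bar. EIF4G1, EIF2S2 and EIF5 show no overlap between groups, whereas the other 5 overlap.

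EIF2 is a complex of 3 subunits, and a probe set of the beta subunit was the 1 of this group that rose. EIF2S2, the beta subunit that contacts EIF5 and EIF2B, rose in its brightest probe set, MmuSTS.4292.1.S1_at. The signal was 10284, 13969, 16462, 23293 and 16892 in controls and 27444, 28896, 25464, 32433 and 30591 in brain-dead animals. No brain-dead animal was as low as any control, and control animal 4 came nearest to them. EIF2S2 rose 1.85-fold (log2 change 0.89 ± 0.21, 95% interval 0.42 to 1.35, limma, Benjamini-Hochberg adjusted p = 0.0308), by 1.08 among females and 0.56 among males. The call was lost under 9 of 23 alternatives. These were no filter, sex with age in the model, and leaving out control animal 1, 2 or 3, brain-dead animal 3, 4 or 5, or both animals numbered 1. No age is given for brain-dead animal 3, which bears on the fit with age. Over the alternatives the adjusted p ran from 0.0118 to 0.0761 (limma, Benjamini-Hochberg).

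The other 4 EIF2S2 probe sets did not pass, with changes of 0.79 ± 0.36, 0.33 ± 0.20, 0.03 ± 0.26 and -0.45 ± 0.33. The 1 below 0, MmugDNA.18279.1.S1_at, carries a gene identifier that was not found among the current rhesus genes, unlike the other 82 EIF probe sets. Its differences were -1.03 among females and -0.08 among males. By type, the probe sets at 0.79 and 0.33 may hybridise to other transcripts too.

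EIF2S1 is the alpha subunit whose phosphorylation lowers general translation. Its probe set of highest mean signal, MmugDNA.26229.1.S1_at, had signals of 3159, 3168, 2817, 6622 and 4953 in controls and 7549, 6047, 6082, 9451 and 10566 in brain-dead animals. Only control animal 4 lay within the range of the brain-dead animals. The change of 0.98 ± 0.28 (95% interval 0.39 to 1.57) had an adjusted p of 0.0522 (limma, Benjamini-Hochberg), just outside the threshold. It passed under 9 of 23 alternatives, over which that p ran from 0.0119 to 0.138. The other 3 EIF2S1 probe sets had changes of 0.42 ± 0.25, 0.20 ± 0.50 and -0.20 ± 0.18. EIF2S3, the gamma subunit that binds GTP and tRNA, had 3 probe sets with changes of 0.15 ± 0.32, 0.00 ± 0.24 and -0.18 ± 0.33, none past the threshold.

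Of the exchange factor EIF2B, genes of 3 subunits were measured and none passed. EIF2B1, the regulatory alpha subunit, had signals of 3728, 3737, 4306, 5782 and 4865 in controls and 8016, 6643, 5746, 8069 and 8083 in brain-dead animals on its brighter probe set. Brain-dead animal 3 lay just under control animal 4, which is the whole overlap. The change was 0.71 ± 0.20 (limma, Benjamini-Hochberg adjusted p = 0.0556), and 0.61 ± 0.22 on the other probe set. EIF2B5, the catalytic epsilon subunit, had a change of 0.61 ± 0.24 (limma, Benjamini-Hochberg adjusted p = 0.136), and EIF2B3, the gamma subunit, one of -0.04 ± 0.20 (0.933).

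EIF2D, which delivers tRNA to the ribosome independently of EIF2, had the lowest change on the EIF2 list. Its signals were 1973, 2968, 2242, 1925 and 1173 in controls and 1389, 1545, 1463, 1072 and 844 in brain-dead animals. Of the controls 4 were above all brain-dead animals, and control animal 5 lay among them. The change was -0.68 ± 0.27 (limma, Benjamini-Hochberg adjusted p = 0.146). Of the 17 EIF2 probe sets, all tested, 1 rose and none fell, 12 had a change above 0, and the median was 0.20. This median was 0.34 without control animal 1, 0.38 without brain-dead animal 2 and 0.61 with each gene counted once by its probe set of highest mean signal.

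EIF3 had no probe set past the threshold, and nearly all its changes were above 0. Of 24 tested probe sets 23 had a change above 0, and the median over all 27 was 0.40, above those of EIF2 (0.20) and EIF4 (-0.10). With each gene counted once by its probe set of highest mean signal the order differed, the median being 0.53 for EIF3 and 0.61 for EIF2. Of 11 EIF3 genes 9 had all their probe sets above 0. The median over EIF3 probe sets, as a deviation from the mean of controls, was -0.47, -0.12, -0.14, 0.34 and 0.24 in control animals 1 to 5 and 0.42, 0.16, 0.45, 0.59 and 0.67 in brain-dead animals 1 to 5. The groups overlapped, since control animals 4 and 5, the males, were above brain-dead animal 2, a female. Within each sex every brain-dead animal was above every control.

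**Figure D3:**
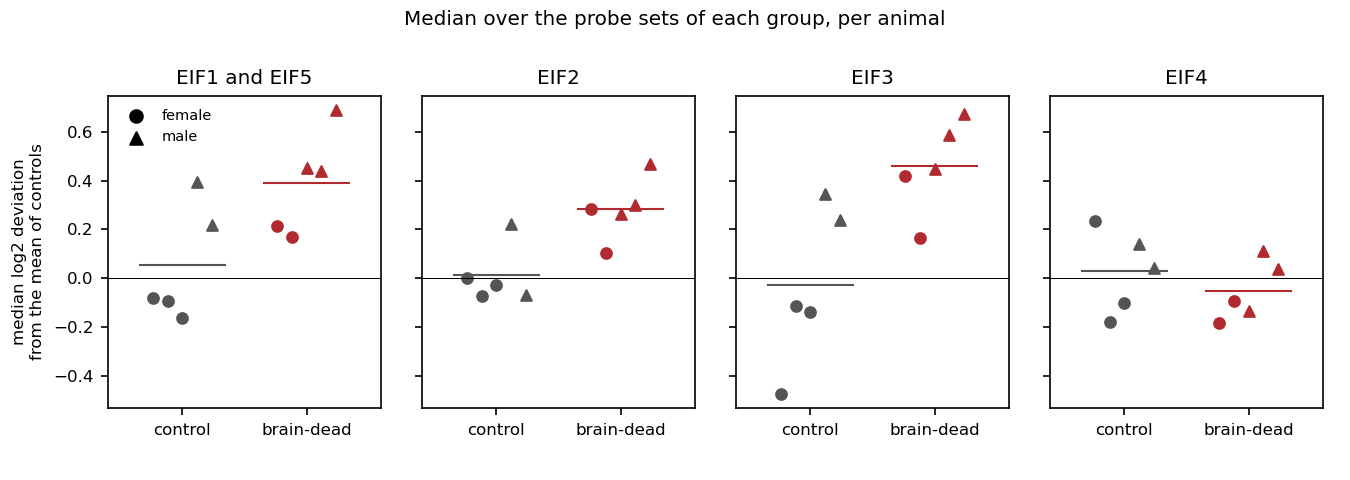
Median log2 deviation from the mean of controls over the probe sets of each group (vertical axis) for each animal, circles for females and triangles for males, with group means as lines. For EIF3 the brain-dead animals lie between 0.16 and 0.67 and the controls between -0.47 and 0.34, and the groups overlap in every panel.

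EIF3J, a loosely bound subunit that helps the small subunit select the start codon, held the highest change of the family. The probe set with that change had signals of 1188, 1953, 2062, 2437 and 4719 in controls and 3917, 2966, 5365, 4326 and 14993 in brain-dead animals. Brain-dead animal 5 was far above the others, and control animal 5 lay among the brain-dead animals. The change was 1.24 ± 0.43 (95% interval 0.31 to 2.17, limma, Benjamini-Hochberg adjusted p = 0.103). The brightest EIF3J probe set, MmugDNA.36206.1.S1_s_at, had signals of 4314, 5500, 6998, 13165 and 10412 in controls and 12066, 12698, 14684, 17181 and 17141 in brain-dead animals, with only control animal 4 inside the brain-dead range. Its change was 0.97 ± 0.29 (limma, Benjamini-Hochberg adjusted p = 0.0627), passing under 6 of 23 alternatives. The other 2 had changes of 0.65 ± 0.23 and 0.35 ± 0.24. By its type, the brightest may hybridise to several transcripts.

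EIF3B is a core subunit that joins the other subunits near the mRNA path. Its 1 tested probe set had signals of 1784, 911, 998, 942 and 1750 in controls and 3531, 1522, 2056, 2231 and 3846 in brain-dead animals. Brain-dead animal 2 fell among the controls and the other 4 lay above them. The change was 1.03 ± 0.31 (limma, Benjamini-Hochberg adjusted p = 0.0637), and it passed under 4 of 23 alternatives. The 2 other EIF3B probe sets were too dim to be tested. EIF3D, a subunit that can itself bind the cap of some mRNAs, had 3 probe sets with changes of 1.00 ± 0.32, 0.84 ± 0.29 and 0.67 ± 0.28, and the first had an adjusted p of 0.0808 (limma, Benjamini-Hochberg).

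EIF3A, the largest core subunit, had signals of 4882, 4493, 4689, 4155 and 6650 in controls and 11272, 5299, 6854, 6097 and 11678 in brain-dead animals on its brightest probe set. Brain-dead animals 1 and 5 stood well above the rest, and brain-dead animals 2 and 4 lay below control animal 5. The change was 0.67 ± 0.26 (limma, Benjamini-Hochberg adjusted p = 0.137), and the other 3 probe sets had 0.67 ± 0.28, 0.22 ± 0.34 and 0.01 ± 0.21. EIF3I, a subunit built of WD repeats, was among the steadiest, with changes of 0.53 ± 0.18 and 0.58 ± 0.23 on its 2 probe sets. On the first, MmuSTS.3591.1.S1_s_at, controls reached 5710 to 8235 and brain-dead animals 9729 to 11512, without overlap (limma, Benjamini-Hochberg adjusted p = 0.0956). By its type, that probe set may hybridise to several transcripts.

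The remaining EIF3 subunits did not pass either. EIF3E had changes of 0.52 ± 0.23 and 0.40 ± 0.18, the latter on a probe set whose groups did not overlap (15534 to 25948 in controls and 26083 to 32427 in brain-dead animals), and EIF3M one of 0.55 ± 0.33. EIF3L (0.14 ± 0.21), EIF3F (0.14 ± 0.24) and EIF3H (0.13 ± 0.23 and 0.12 ± 0.22) had 95% intervals from -0.37 to 0.64 at the widest, so a change of 1 on the log2 scale lies outside them. A second EIF3F probe set was too dim to be tested, and its change of -0.36 was the lowest of all EIF3 probe sets. EIF3K, a small peripheral subunit, held the lowest tested change of EIF3, with signals of 713, 1024, 1255, 502 and 685 in controls and 808, 789, 975, 753 and 605 in brain-dead animals. Its groups overlapped fully and its change was -0.03 ± 0.26, with its sign differing between settings, and the other 2 probe sets had 0.36 ± 0.34 and 0.27 ± 0.32.

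The EIF1 and EIF5 factors, with EIF1AD counted among them, were above 0 in 14 of 14 probe sets, none past the threshold, with a median of 0.37. EIF5, which triggers GTP hydrolysis by EIF2 once the start codon is found, had 5 probe sets with changes from 0.27 to 0.77. The highest, MmugDNA.38360.1.S1_s_at, had signals of 15107, 9351, 8900, 16393 and 8045 in controls and 18636, 17346, 19418, 16924 and 22868 in brain-dead animals. The groups did not overlap, but brain-dead animal 4 and control animal 4 lay close together. Its change was 0.77 ± 0.23 (limma, Benjamini-Hochberg adjusted p = 0.0644). By its type, it may hybridise to several transcripts. The EIF5 probe sets not of this type had changes of 0.27, 0.34 and 0.48, and their groups overlapped.

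EIF5B, the GTPase that joins the large ribosomal subunit, had 4 probe sets with changes of 0.87 ± 0.34, 0.72 ± 0.28, 0.43 ± 0.27 and 0.40 ± 0.24. On the first, MmugDNA.1644.1.S1_at, signals were 931, 1948, 2480, 3298 and 2368 in controls and 1997, 3434, 4713, 4590 and 4752 in brain-dead animals, with brain-dead animal 1 among the controls (limma, Benjamini-Hochberg adjusted p = 0.148). On the last, MmugDNA.20736.1.S1_at, signals were 2256, 1246, 1266, 1631 and 1634 in controls and 2234, 1559, 1807, 1951 and 3090 in brain-dead animals. Control animal 1 was thus the lowest of all 10 on one EIF5B probe set and the highest control on another, so the order of single animals was not the same for probe sets of 1 gene.

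EIF1, which keeps the scanning ribosome open until a start codon is met, had changes of 0.29 ± 0.34, 0.22 ± 0.26 and 0.21 ± 0.29. The last probe set, MmugDNA.22895.1.S1_at, had the lowest change among EIF1 and EIF5 factors, with signals of 179, 304, 382, 449 and 497 in controls and 366, 328, 395, 366 and 545 in brain-dead animals. The groups overlapped, control animal 1 was lowest, and without it the change was -0.03. EIF1B, a close relative of EIF1, had a change of 0.23 ± 0.34, and EIF1AD, a protein with an EIF1A domain, one of 0.21 ± 0.24.

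EIF5A, which helps ribosomes through difficult peptide bonds, had signals of 1805, 6217, 2896, 3560 and 1957 in controls and 3240, 3693, 6023, 5954 and 1708 in brain-dead animals. Both groups spanned more than a 3-fold range and overlapped throughout, and the change was 0.34 ± 0.40 (limma, Benjamini-Hochberg adjusted p = 0.651). It was 0.16 to 0.19 without control animal 1 or 5 or brain-dead animal 3 or 4, 0.61 without control animal 2 and 0.62 without brain-dead animal 5. It was 0.19 once sex and age were covariates, with no age given for brain-dead animal 3. Its relative EIF5A2 had 4 probe sets, of which 3 were too dim to be tested and 1 had a change of 0.09 ± 0.31. EIF6, which keeps free large subunits from joining small ones, had signals of 3258, 5387, 5789, 7207 and 8302 in controls and 4785, 5195, 5616, 8641 and 9515 in brain-dead animals. These ranges also overlapped, and the change of 0.18 ± 0.29 (limma, Benjamini-Hochberg adjusted p = 0.745) became -0.02 without control animal 1.

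**Figure D4:**
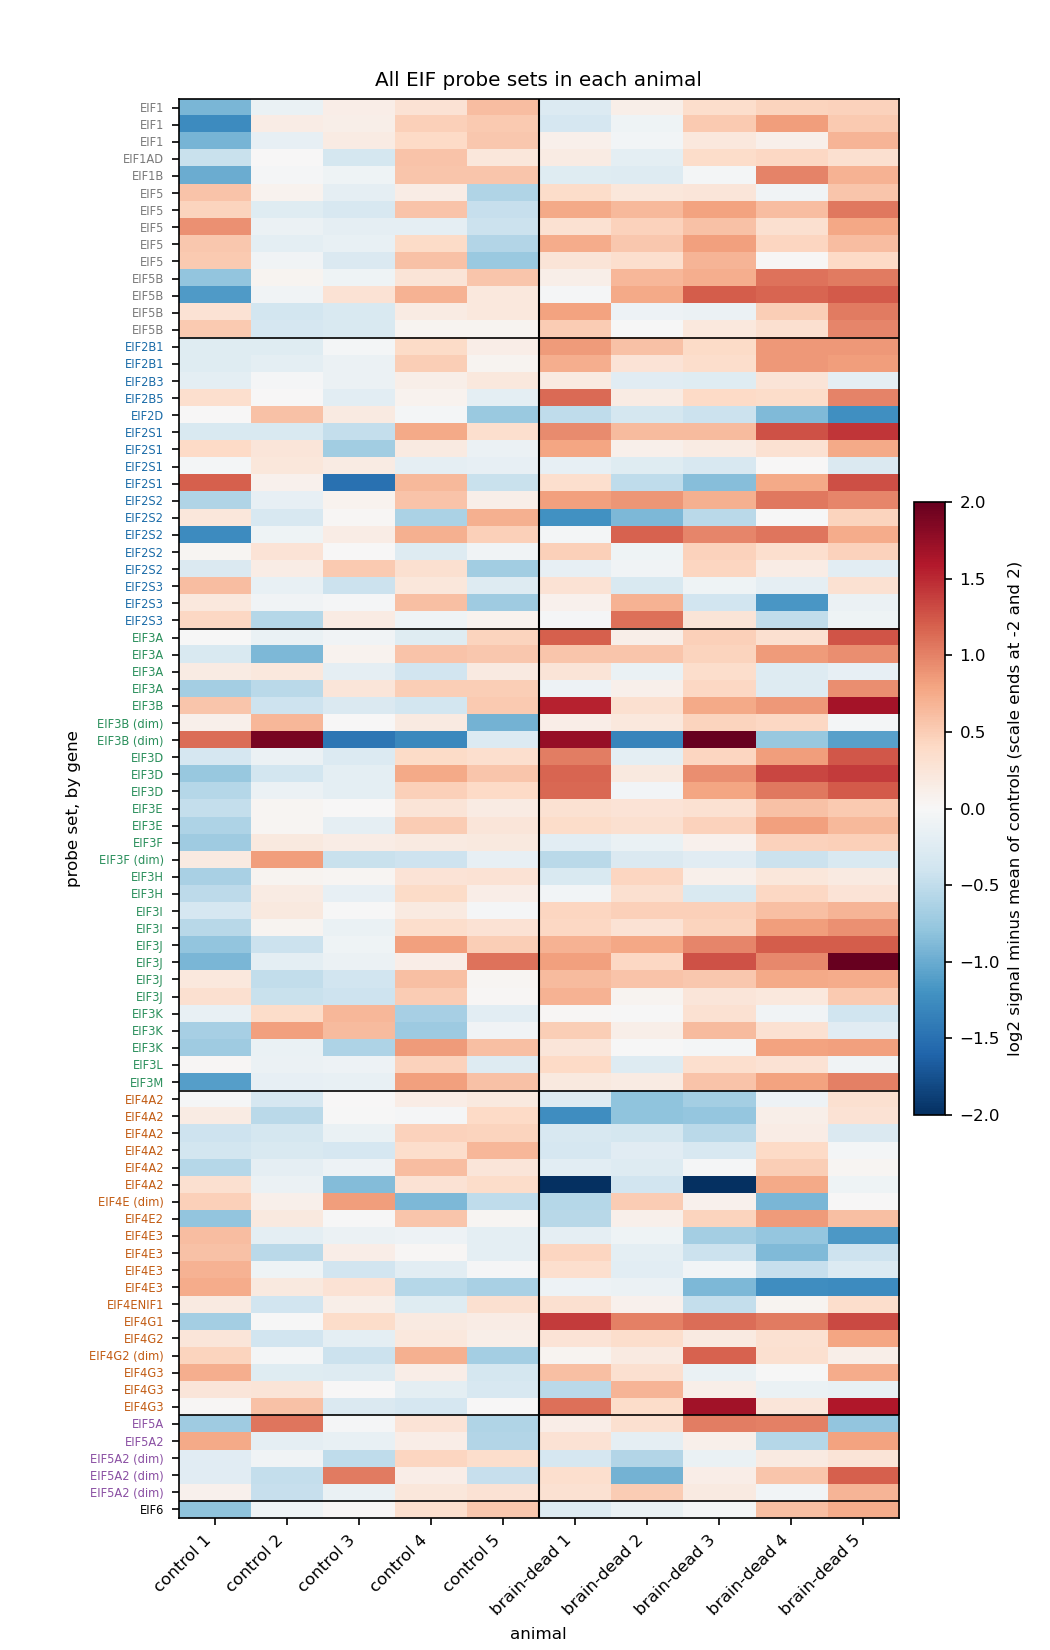
Log2 signal of all 83 EIF probe sets (rows, by gene, those not tested marked dim) in each of the 10 animals (columns), as deviation from the mean of controls, red for higher and blue for lower, with the scale ending at -2 and 2. Control animal 1 was lowest of the 10 for 31 probe sets and brain-dead animal 5 highest for 28.

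Single animals gave many of the extremes. Control animal 1 had the lowest signal of all 10 animals for 31 of the 83 probe sets (37.3%), where it was lowest for 12.7% of all probe sets tested. Brain-dead animal 5 was highest for 28 (33.7%, beside 14.4% of all tested) and brain-dead animal 4 for 13 (15.7%, beside 6.16%). The EIF shares are over all 83 probe sets, dim ones included, while the others are over tested probe sets only. Of 21 genes with several probe sets, 12 had all of them above 0, EIF4E3 had all below 0, and 8 had both signs.

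Males and females were also compared, in a comparison added after the data were seen. In a model with group and sex, 24 of 75 EIF probe sets had an unadjusted p under 0.05 for sex and none passed after adjustment, where 12.1% of all probe sets tested had such an unadjusted p and 0 passed (limma, Benjamini-Hochberg). The male minus female value was above 0 for 51 of the 75, beside 41.8% of all probe sets tested. EIF3M was 0.89 ± 0.24 higher in males (limma, Benjamini-Hochberg adjusted p = 0.291), and EIF4E3 differed by -1.02 ± 0.20 on MmugDNA.3086.1.S1_at, the lowest adjusted p of the family (0.184). Since the groups hold unequal numbers of each sex, the fit with sex in the model bears on the main comparison, and there 4 EIF probe sets passed in place of 2. Of all probe sets tested 5.41% passed there, in place of 6.1%. The difference between groups was also compared between the sexes. For this interaction 0 EIF probe sets passed and 0 had an unadjusted p under 0.05, where 3.81% of all probe sets had one (limma), with 2 to 3 animals of a sex in each group.

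**Figure D5:**
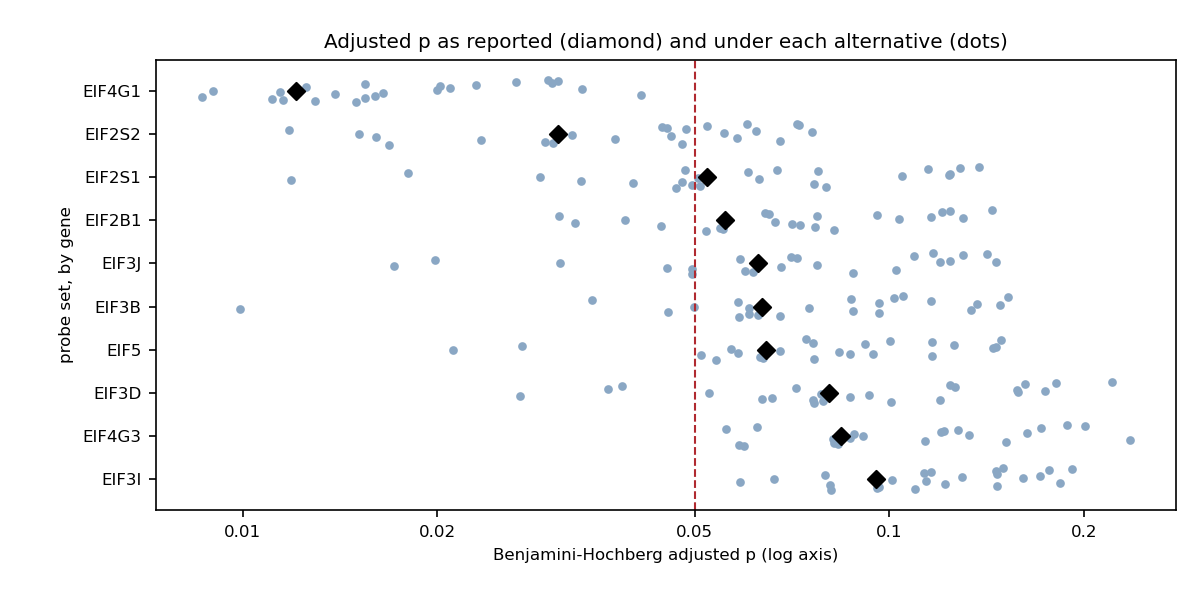
Benjamini-Hochberg adjusted p from limma (horizontal, log axis) of the 10 EIF probe sets with a value under 0.1, as reported (diamonds) and under each alternative (dots), with the threshold of 0.05 dashed. All dots of EIF4G1 lie left of the line, those of EIF2S2 on both sides, and those of EIF4G3 and EIF3I to its right.

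At a threshold of 0.1, 10 of the 75 tested probe sets would pass, all higher, where 11.8% of all probe sets tested did and 5.55% were higher. Besides the 2 named above they belong to EIF2S1, EIF2B1, EIF3B, EIF3D, EIF3I, EIF3J, EIF5 and EIF4G3, singled out after their values were seen.

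Other genes of the pathway were taken from 5 lists, each gene by its probe set of highest mean signal, beside 6.81% of all 9835 genes tested that passed. Of 14 listed genes of the integrated stress response, the programme that follows EIF2S1 phosphorylation, 7 were tested and 0 rose or fell. EIF2AK1, EIF2AK2, EIF2AK4 and PPP1R15A had no probe set annotated to them alone. EIF2AK3, the kinase of the endoplasmic reticulum, had a change of 0.77 ± 0.33 (limma, Benjamini-Hochberg adjusted p = 0.176) and ATF4, its main transcription factor, one of 0.67 ± 0.26 (0.138). These were the highest of the 7; TRIB3 had 0.49 ± 0.29, DDIT3 -0.17 ± 0.24, ATF3 -0.23 ± 0.47, NUPR1 -0.98 ± 0.53 and CHAC1 -1.08 ± 0.63, and the median of the list was -0.17. Of 16 listed genes of mTOR and MNK signalling to EIF4, 14 were tested and none passed. MTOR itself had a change of -0.15 ± 0.25. DDIT4, an inhibitor of mTOR named after its value was seen, had one of -1.23 ± 0.38 (limma, Benjamini-Hochberg adjusted p = 0.0693). That was the lowest of the 14, whose median was -0.0004. None of the 4 tested of 11 listed elongation and termination genes passed, and none of 6 mitochondrial translation factors.

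Of 17 listed initiation partners 10 were tested, of which 1 rose and none fell. PABPC1 had no probe set annotated to it alone. BZW2, a protein that mimics part of EIF5 and competes with it for EIF2, had signals of 3454, 3307, 2601, 4755 and 3834 in controls and 6365, 5349, 5043, 7274 and 10007 in brain-dead animals on MmugDNA.32300.1.S1_at. The groups did not overlap, and the change was 0.91 ± 0.24 (limma, Benjamini-Hochberg adjusted p = 0.0430). The call was lost under 13 of 23 alternatives, where the adjusted p reached 0.107, and among single animals it was kept only without control animal 4 or brain-dead animal 2. Another BZW2 probe set rose by 1.06 ± 0.26, while those at 0.88 ± 0.25 and -0.50 ± 0.37 did not pass. BZW1, the second protein of this kind, did not pass on its brightest probe set (0.79 ± 0.24, limma, Benjamini-Hochberg adjusted p = 0.0727) but did on another (0.95 ± 0.26, 0.0492).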

How the data were processed

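RNA was purified from liver with Trizol and columns with DNase, and biotin-labelled by in vitro transcription, per the labels' protocols. The deposited values are 1 linear signal intensity per probe set and array, computed with MAS5 per the submitters' processing notes (no version stated in the sources used). The arrays share a 2% trimmed mean of 1000.1, as arrays scaled to a common target do. Signals were put on a log2 scale of the deposited intensity without pseudocount. The 99 control probe sets were left out and 26653 probe sets tested with limma 3.58.1 in R 4.3.3 (lmFit, eBayes with trend). Benjamini-Hochberg adjustment ran over all of them, with a threshold of 0.05. The fit was tested on simulated data. Depth has no counterpart here. Symbols come from a platform annotation of an older date, and 82 of the 83 gene identifiers were found in the current RefSeq table. EIF4A1, EIF4EBP1, EIF1AX and EIF1AY, named in the plan, are not analysed here.

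Replicate numbers named animals only. Same-numbered animals' deviations from their group means correlated at 0.38, 0.06, 0.13, 0.09 and 0.13. Signals in every animal are given for probe sets past the threshold, the highest and lowest of each group, the brightest of a preset list of genes, and further probe sets chosen after their values were seen. Alternatives covered normalization, pseudocount, filter, sex and age as covariates, the replicate number as a block, the limma options and each animal left out. No age is given for brain-dead animal 3, so a shift in the fit with age cannot be credited to age alone. Pathway genes named are those past the threshold and preset ones, with DDIT4, BZW1 and the other tested stress response genes added after their values were seen. The members and lists were chosen with earlier results of these data known, so counts over them are descriptions.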

Additional observations from a re-analysis of the deposited data

Results flagged for a closer look

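Within a group of 5 animals, 6 of 150 sets of signals had an extreme animal by Dixon's criterion, where chance alone flags about 1 in 20. In 5 of the 6 it was control animal 1. That animal was lowest for EIF1 (9998 on MmugDNA.3378.1.S1_at), EIF3F (7544) and EIF3H (11524), and highest for EIF5 (16287) and EIF4E3 (2967 on MmugDNA.3085.1.S1_at). The sixth was brain-dead animal 2, lowest for EIF2S2 at 1915 on MmugDNA.20427.1.S1_x_at. None of these 6 probe sets passed the threshold. The cause was not tested.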

How the results depend on the processing

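The 2 EIF probe sets past the threshold became 4 with quantile normalization, where 6.35% of all probe sets tested passed. The number was 4 with sex in the model (5.41% of all), 9 with array weights (8.98%) and 1 without both arrays numbered 1 (2.53%). With a filter at the 75th percentile it was 6 of 61 tested (11% of all), and with no filter 1 of 83 (2%). At a threshold of 0.1 it was 10 (11.8% of all) and at 0.01 it was 0. When single arrays were left out it ran from 1 to 8, while 2.48% to 8.59% of all probe sets tested passed. With the replicate number as a block the EIF count was 13 (12 higher and 1 lower, where 11.3% of all probe sets tested passed). No label pairs the animals, and those numbered 3 differ in sex, so the numbers were not taken to pair animals. The correlations of same-numbered animals, 0.06 to 0.38, do not settle this. Pathway genes past the threshold, 1 as reported, were 6 with that replicate block (11.3% of all probe sets tested) and 3 with array weights (8.98%). They were 0 with median centring (5.34%), no filter (2%), sex in the model (5.41%), no trend (5.14%) or without both arrays numbered 1 (2.53%). When single arrays were left out they were 0 to 3, beside the same 2.48% to 8.59% of all probe sets tested. The EIF2 median ran from 0.17 to 0.38 when single arrays were left out, and was 0.61 by brightest probe sets; the EIF4 median was then 0.18. The EIF3 median lay between 0.34 and 0.58 throughout. Signs of changes near 0 turned for EIF3K (0.038 with median centring and 0.049 with sex in the model; -0.20 to 0.14 when single arrays were left out, above 0 without control animal 2 or 3 or brain-dead animal 5), EIF1 (-0.0012 without both arrays numbered 1; -0.028, without control animal 1, to 0.34) and EIF6 (-0.019, without control animal 1, to 0.32). The interaction of sex and brain death had 0 EIF probe sets past the threshold under every alternative run, and sex alone 0 under both of its alternatives. The cause of these shifts was not tested. Dim probe sets, below the array median, set the limit of what could be tested.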
